A study of Mus musculus with 6 samples.

Results

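The Rab GTPases are small membrane-bound switches that give each compartment of the cell its identity. Bound to GTP, a Rab recruits the tethers, motors and fusion factors that act on its membrane, and on hydrolysis it is extracted again. In macrophages they steer newly formed phagosomes and endosomes from early through late stages to the lysosome, the compartment in which the potassium and proton channel TMEM175 resides. The genes described here are the protein-coding mouse genes with a symbol made of Rab, a number and at most one letter. They were 58 of the 55421 genes in the deposited count table, they lie on 18 chromosomes, and they were sorted by the compartment with which each is mainly associated.

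RNA was sequenced from primary bone marrow-derived macrophages, cells that differentiate in a dish from precursors taken out of the marrow. The knockout (KO) group comprised 3 wells of cells with floxed Tmem175 alleles and a Lyz2-driven Cre recombinase, labelled Tmem175flox/flox Lyz2-Cre+/-, and the other group comprised 3 wells of wild type (WT) cells. Neither strain, age nor sex of the mice is given, and the series' design text names wells, not animals, so p-values measure a spread between wells that may be technical. Cre, its insertion in Lyz2 and any difference in background accompany the deletion in all KO wells and cannot be told apart from it.

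Total counts per library ranged from 24179548 to 31542741. Tmem175 stood at 14.3, 13.2 and 12.1 CPM, counts scaled to library size in KO libraries, against 32.8, 33.4 and 33.2 CPM in WT libraries. The change on the log2 scale was -1.33 with an SE of 0.07 (edgeR's quasi-likelihood test, adjusted p = 6.01e-05). Lyz2, which carries Cre, averaged 24326 ± 1578 CPM in KO and 45178 ± 4163 CPM in WT libraries (SD, n = 3 each), a change of -0.89 on the log2 scale with an SE of 0.08 (edgeR adjusted p = 0.00415). The 8 macrophage markers, among them Adgre1, Csf1r and Cd68, summed to 9271 to 10128 CPM in KO and 9177 to 10263 CPM in WT libraries. RNA of genes used as markers of other marrow cells was also detected, and which cells made it was not tested. The 10 neutrophil markers summed to 709 to 764 CPM in KO and 417 to 613 CPM in WT libraries. The 8 mast cell and basophil markers summed to 18.3 to 25.4 CPM in KO and 25.2 to 33.6 CPM in WT libraries. The 8 platelet and erythroid markers summed to 63.8 to 103 CPM in KO and 87.7 to 150 CPM in WT libraries, with Gp1bb and Hbb-bs at 0 throughout. Markers of T, B and NK cells summed to 10.9 to 14.8 CPM in KO and 14.7 to 18.3 CPM in WT libraries. Dendritic cell markers summed to 15.2 to 22.0 CPM in KO and 19.0 to 27.6 CPM in WT libraries. Stromal markers summed to 21.1 to 45.4 CPM in KO and 13.8 to 57.3 CPM in WT libraries. None of these markers passed the test. S100a8 came nearest, and was higher in every KO library (log2 fold change 0.70, SE 0.10, edgeR adjusted p = 0.0521). S100a8 and S100a9 were the largest terms of the neutrophil sum, whereas Ly6g averaged 0.332 CPM over all libraries. Not all neutrophil markers were higher in KO: Mpo was lower in every KO library (log2 fold change -0.76, SE 0.18), and Elane was lower on average (-0.44, SE 0.22).

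The promoters of the Rab genes were read for the CLEAR element, the palindrome bound by TFEB and its relatives, which switch on many lysosomal genes. RefSeq promoter windows on GRCm38.p6, from 250 bases before to 50 bases after a gene start, were held for 47 of the 58 genes, with 59 windows in all. The 10 letters GTCACGTGAC, which read the same on both strands, were taken from the Rab5a window, so that the match of Rab5a is given by the choice. They occurred in 3 of the 59 windows (5.08%), those of Rab5a, Rab21 and Rab24, and in 107 of all 32851 windows (0.326%). Without Rab5a, 2 of the remaining 58 Rab windows held them (3.45%). The shorter E-box CACGTG, which lies inside the longer motif, occurred in 6 genes and 10.2% of Rab windows, against 7.15% of all windows. The stretches below are shown because Rab5a and Rab21 carry the full element upstream of their start, whereas Rab20 and Rab27a hold the E-box alone. Rab20 is in the same early endosome and phagosome group as Rab5a and Rab21, and Rab24 is a late endosome gene. Not shown are Rab23, which also held the E-box alone, and a further E-box of Rab5a, 235 bases before its start. Capitals mark the motif, and each stretch runs in the direction of the gene. The Rab27a stretch lies inside its annotated gene (73044854 to 73097629), so its window belongs to a start within the gene. The Rab20 stretch also falls within its annotated gene (11453518 to 11478710).
Rab5a, chr17:53479122-53479161, plus strand: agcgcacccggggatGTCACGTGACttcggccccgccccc
Rab21, chr10:115315599-115315638, minus strand: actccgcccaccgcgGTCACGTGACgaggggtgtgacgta
Rab20, chr8:11478664-11478703, minus strand: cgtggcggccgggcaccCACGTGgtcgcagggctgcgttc
Rab27a, chr9:73063898-73063924, plus strand: cttgCACGTGctcctccgtctgtctga
The element began 97 bases before the start of Rab5a and 32 bases before that of Rab21, and in Rab24 it began at the start itself. These are matches of letters and not measured binding. Rab5a, Rab21 and Rab24 had log2 fold changes of -0.02 (SE 0.05), -0.02 (SE 0.04) and 0.09 (SE 0.11), KO over WT, none of which passed edgeR's test (adjusted p = 0.979, 0.979 and 0.978).

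Of the 58 genes, 47 passed the filter on low counts and 11 did not. Levels are given as CPM after TMM scaling per kilobase of exon, which allows genes to be compared with each other. On this scale 39 genes reached a level of 1, 26 reached 10 and 9 reached 50. Among all 13588 genes tested, the median Rab gene stood at the 74.2nd percentile of level, 32 of the 47 lay above the median and 11 above the 90th percentile. The 10 highest Rab genes held 71.1% of the summed Rab level. This sum was 1344 ± 21.7 in KO and 1345 ± 8.39 in WT libraries (SD, n = 3 each).

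**Figure D1:**
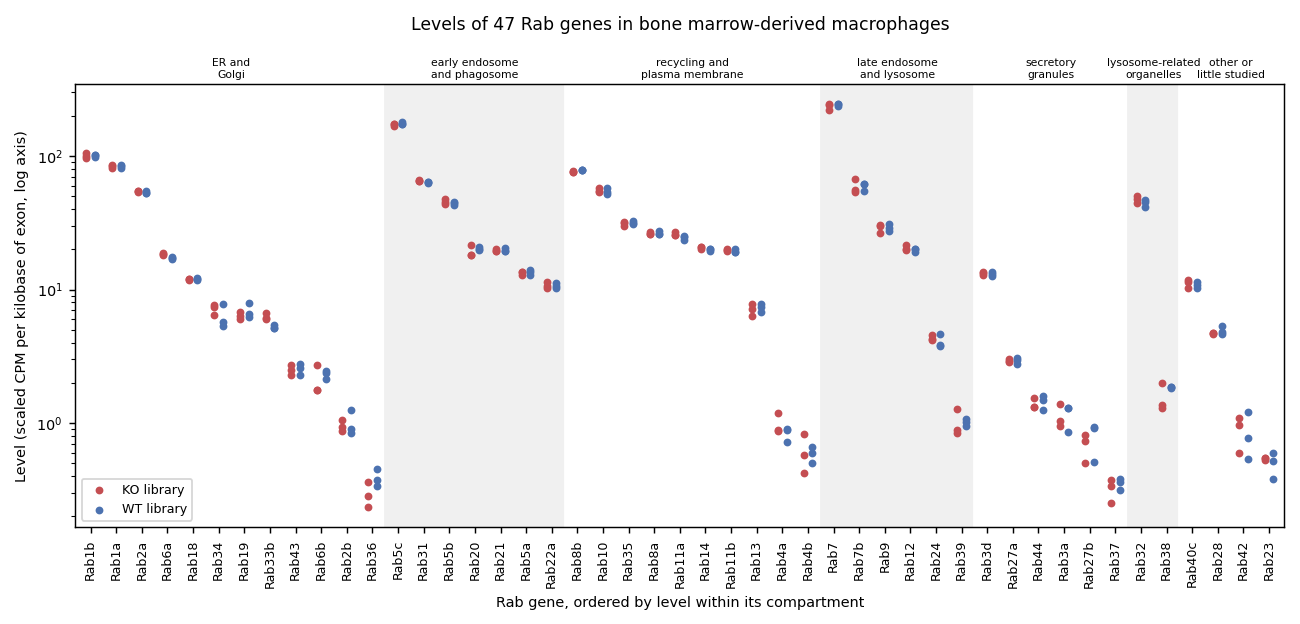
Level of each of the 47 Rab genes that passed the filter, in scaled CPM per kilobase of exon on a log axis, grouped by compartment, with 1 point for each KO library (red) and each WT library (blue). Rab7 and Rab5c stood highest, and the points of both genotypes lay together for most genes.

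Rab7, which drives fusion of late endosomes and phagosomes with lysosomes, was the most highly expressed Rab gene. The gene (ENSMUSG00000079477, chromosome 6, 87999106 to 88045270, GRCm38) stood at 639, 576 and 633 CPM in KO libraries, against 640, 638 and 623 CPM in WT libraries. Only KO replicate 2 lay apart, below the other 5. Per kilobase its level was 236 ± 13.2 in KO and 243 ± 3.55 in WT libraries (SD, n = 3 each), at the 98.8th percentile of genes tested. It changed by -0.04 on the log2 scale, with an SE of 0.05 (edgeR adjusted p = 0.976), and the 95% interval of the change ran from -10.2% to 5.3%.

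Next in the order came Rab5c (per kilobase 173 ± 3.66 in KO and 175 ± 2.80 in WT libraries), Rab1b (101 ± 4.20 in KO and 101 ± 1.52 in WT), Rab1a (84.4 ± 2.25 in KO and 84.1 ± 2.37 in WT) and Rab8b (76.9 ± 0.949 in KO and 78.7 ± 0.347 in WT; SD, n = 3 each). From Rab7 down to Rab31, the sixth, each gene's 6 values lay wholly above those of the next. From Rab31 through Rab7b and Rab10 to Rab2a, neighbours overlapped and their order is not fixed by these data. Over the whole order of 58 genes, 15 neighbouring pairs were apart and 42 overlapped.

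The 7 compartments took up very unequal shares of the summed level. Late endosome and lysosome genes held 26.0% ± 0.951 in KO and 26.5% ± 0.582 in WT libraries, and early endosome and phagosome genes 25.8% ± 0.134 in KO and 25.9% ± 0.118 in WT libraries (SD, n = 3 each). ER and Golgi genes held 22.0% ± 0.299 in KO and 21.7% ± 0.317 in WT libraries, and genes of recycling and delivery to the plasma membrane 19.7% ± 0.299 in KO and 19.7% ± 0.291 in WT libraries. Rab32 and Rab38, of lysosome-related organelles, together held 3.65% ± 0.237 in KO and 3.45% ± 0.190 in WT libraries. Secretory granule genes held 1.47% ± 0.0291 in KO and 1.47% ± 0.0388 in WT libraries, and the remaining, less studied genes 1.29% ± 0.0707 in KO and 1.27% ± 0.0384 in WT libraries. In each of the 7 compartments the KO and WT libraries overlapped.

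**Figure D2:**
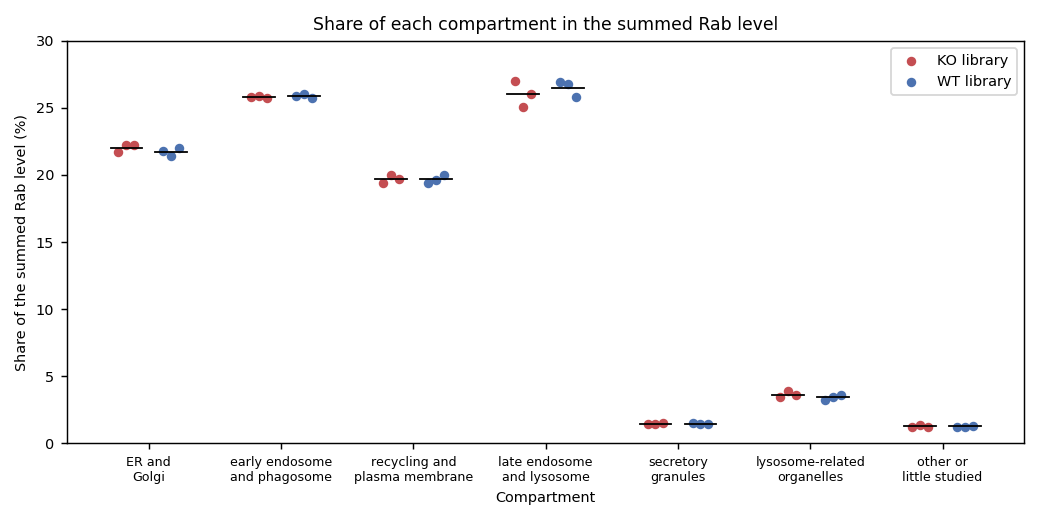
Share of each compartment in the summed Rab level per library, in percent, for KO (red) and WT (blue) libraries, with a line at the mean of 3. Endosomal, Golgi and recycling genes hold 19.4% to 27.0% each, granule genes under 1.6%, and the genotypes overlap in every compartment.

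All 7 genes of early endosomes and phagosomes passed the filter. Rab5c, one of the paralogues that govern fusion of early endosomes, stood at 385, 371 and 384 CPM in KO and 380, 392 and 383 CPM in WT libraries. Rab5b stood at 185, 190 and 200 CPM in KO and 187, 180 and 190 CPM in WT libraries, and Rab5a at 68.1, 71.3 and 71.4 CPM in KO and 68.0, 71.9 and 74.3 CPM in WT libraries. Each of these paralogues overlapped between genotypes. Of the summed Rab5 level per kilobase, Rab5c made up 74.6% ± 0.776 in KO and 75.2% ± 0.688 in WT libraries, Rab5b 19.6% ± 0.629 in KO and 19.0% ± 0.646 in WT, and Rab5a 5.75% ± 0.193 in KO and 5.81% ± 0.223 in WT libraries (SD, n = 3 each). Rab31, which acts between the trans-Golgi network and endosomes, was the sixth highest Rab gene, at 65.5 ± 0.873 per kilobase in KO and 63.7 ± 0.559 in WT libraries. Its values of 246, 253 and 250 CPM in KO lay above the 244, 240 and 244 CPM in WT libraries, by 0.04 on the log2 scale with an SE of 0.04, which did not pass (edgeR adjusted p = 0.972). Rab20, a Rab of maturing phagosomes in macrophages, stood at 19.2 ± 1.98 per kilobase in KO and 20.3 ± 0.676 in WT libraries. Rab21, which carries integrins, stood at 19.5 ± 0.405 in KO and 19.8 ± 0.515 in WT libraries. Rab22a, of early and recycling endosomes, was the lowest of the group at 10.8 ± 0.581 in KO and 10.7 ± 0.414 in WT libraries.

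Of the 7 late endosome and lysosome genes, 6 passed the filter. Rab7b, a relative of Rab7 that acts in transport from late endosomes to the Golgi, stood at 311, 249 and 257 CPM in KO libraries, against 287, 288 and 254 CPM in WT libraries. KO replicate 1 and WT replicates 1 and 2 were high and the other 3 libraries low, so the groups overlapped. It made up 19.9% ± 1.49 of the summed level of Rab7 and Rab7b in KO and 19.7% ± 0.893 in WT libraries. Rab9, which returns mannose 6-phosphate receptors to the Golgi, stood at 29.0 ± 2.21 per kilobase in KO and 29.1 ± 1.92 in WT libraries, and Rab12, which sends the transferrin receptor to degradation, at 20.5 ± 0.941 in KO and 19.8 ± 0.648 in WT libraries. Rab24, a Rab found on autophagic vacuoles, stood at 4.34 ± 0.221 in KO and 4.10 ± 0.498 in WT libraries. However, 62.4% of its exon bases lie under exons of Prelid1 on the opposite strand, and how strand was treated in counting is not given, so its level is uncertain. Rab39 was low at 1.00 ± 0.241 in KO and 1.02 ± 0.0715 in WT libraries.

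Among the 13 genes of recycling and delivery to the plasma membrane, 10 passed the filter. Rab8b, a Rab of exocytic carriers, led with 369, 361 and 362 CPM in KO and 371, 374 and 373 CPM in WT libraries. The KO libraries all lay below the WT libraries, by -0.03 on the log2 scale with an SE of 0.04, which did not pass (edgeR adjusted p = 0.975). Rab10, which brings cargo to the cell surface, stood at 55.3 ± 2.02 per kilobase in KO and 54.6 ± 2.60 in WT libraries, and Rab35, of recycling at the plasma membrane, at 31.2 ± 1.11 in KO and 31.8 ± 0.629 in WT libraries. Of the slow-recycling paralogues, Rab11a stood at 26.0 ± 0.851 in KO and 24.5 ± 0.972 in WT libraries, and Rab11b at 19.7 ± 0.304 in KO and 19.5 ± 0.476 in WT libraries. Rab14, which acts between the Golgi and endosomes, averaged 279 ± 4.51 CPM in KO and 272 ± 6.53 CPM in WT libraries. Per kilobase, the fast-recycling genes were much lower: Rab4a stood at 0.981 ± 0.184 in KO and 0.839 ± 0.0994 in WT libraries and Rab4b at 0.611 ± 0.203 in KO and 0.587 ± 0.0829 in WT libraries, although 65.0% of the exon bases of Rab4b are shared with a same-strand gene model.

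In the ER and Golgi group, 12 of 15 genes passed the filter. Rab1b and Rab1a, which act in transport from the ER to the Golgi, contributed near-equal shares: Rab1b made up 54.5% ± 0.894 of their summed level in KO and 54.6% ± 0.719 in WT libraries. Rab2a, of traffic at the Golgi, stood at 54.3 ± 0.680 per kilobase in KO and 53.2 ± 1.05 in WT libraries. Its paralogue Rab2b stood at 0.957 ± 0.0961 in KO and 0.998 ± 0.223 in WT libraries, but 64.0% of its exon bases lie under exons of Tox4 and another gene on the opposite strand. Rab6a, which directs retrograde transport at the Golgi, made up 89.9% ± 2.42 of the Rab6 level in KO and 88.1% ± 0.713 in WT libraries. Rab18, a Rab of the ER and of lipid droplets, had the lowest coefficient of variation (CV) among the Rab genes that passed, 1.07% over the 6 libraries. This lies below the 2.13% expected from counting alone, so it does not show that the gene is steadier than others.

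Granule Rabs were low. Rab3d, which acts in regulated exocytosis, was the highest of the group at 53.6, 56.4 and 57.0 CPM in KO and 55.1, 52.7 and 57.1 CPM in WT libraries. Rab27a, which docks granules and multivesicular bodies at the plasma membrane, stood at 11.3, 11.8 and 11.1 CPM in KO and 11.8, 11.5 and 10.8 CPM in WT libraries. Both genes overlapped between genotypes. The 95% interval of the change of Rab27a ran from -11.5% to 13.3% (edgeR). Of the 9 granule genes, 3 did not pass the filter: Rab3c had a count of 0 in all libraries, Rab3b had 1 count in each of 2 WT libraries and 0 elsewhere, and Rab26 had 5, 5 and 1 counts in KO and 2, 3 and 2 counts in WT libraries.

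**Figure D3:**
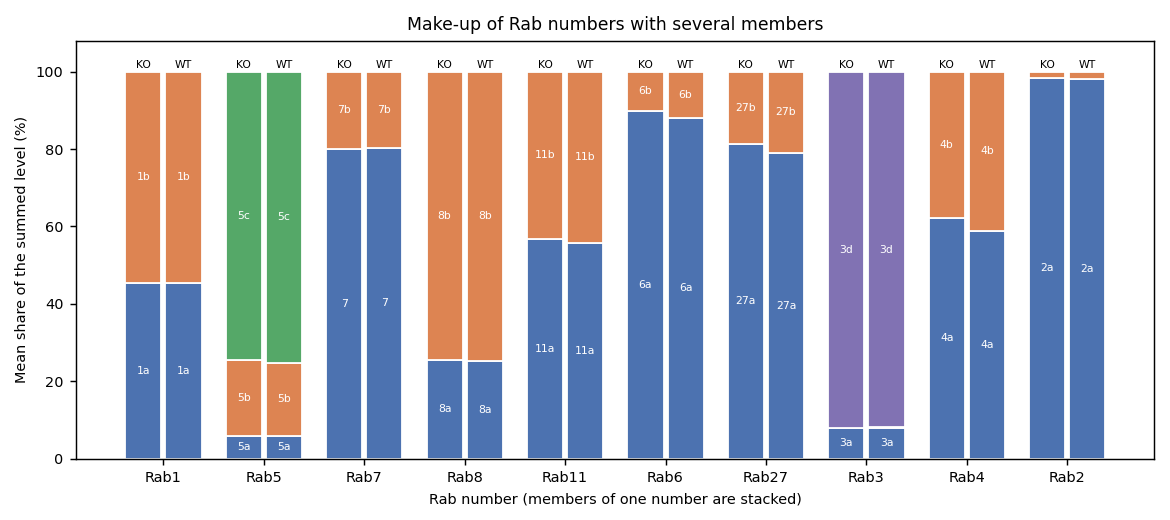
Mean share of each paralogue in the summed level per kilobase of its Rab number, in percent, in KO (left bar) and WT (right bar) libraries, for 10 of the 14 numbers with several members. Rab5 is mostly Rab5c (74.6% in KO and 75.2% in WT) and Rab8 mostly Rab8b (74.5% in KO and 74.7% in WT), with like make-up in both genotypes.

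Rab32, which with Rab38 delivers cargo to lysosome-related organelles such as melanosomes, was the tenth most expressed Rab gene by mean level per kilobase. Its values overlapped those of Rab5b, the next in the order, so this rank is not fixed by these data. It stood at 104, 118 and 111 CPM in KO and 97.1, 106 and 110 CPM in WT libraries. Rab38 stood at 3.17, 2.16 and 2.05 CPM in KO and 2.92, 2.92 and 2.90 CPM in WT libraries. KO replicate 1 lay above the WT libraries and KO replicates 2 and 3 below them. Neither gene passed the test (Rab32 log2 fold change 0.09, SE 0.06; Rab38 -0.24, SE 0.20; adjusted p = 0.968 for each, edgeR).

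Of the remaining genes, Rab40c, whose product carries a SOCS box and assembles a ubiquitin ligase, was the highest, at 32.0, 36.3 and 35.2 CPM in KO and 31.6, 33.6 and 35.2 CPM in WT libraries. These values overlapped. Rab28, known from cilia and photoreceptors, stood at 21.3, 21.1 and 21.3 CPM in KO and 24.2, 21.9 and 21.0 CPM in WT libraries, where only WT replicate 1 stood apart. Rab23, which restrains Hedgehog signalling, was low at 0.542 ± 0.0122 per kilobase in KO and 0.498 ± 0.107 in WT libraries (SD, n = 3 each).

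The 11 genes that did not pass the filter had at most 12 counts in a library. They included Rab25 and Rab17 of epithelial recycling, the neuronal genes Rab3b, Rab3c and Rab39b, and Rab33a, Rab15, Rab26, Rab30 and Rab40b. Rab3c and Rab9b had no count in any library, which allows up to 3 counts in each. For these genes no difference was detectable at this depth.

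No Rab gene passed the test between genotypes. Of the 47 tested, 0 were higher and 0 lower in KO at an adjusted p under 0.05, against 14 of all 13588 genes (0.103%; 2 higher, 0.0147%, and 12 lower, 0.0883%). The smallest adjusted p of a Rab gene was 0.627. The median log2 fold change was -0.004 over the 47 genes, 23 of them positive and 24 negative, and -0.001 over all genes tested. The median size of a change was 0.041 on the log2 scale for Rab genes and 0.067 for all genes. At an unadjusted p under 0.05, 2 Rab genes were higher and 0 lower, where 5.44% of all genes passed (2.40% higher and 3.04% lower). The KO and WT libraries did not overlap for 5 of the 47 Rab genes (10.6%), and for 10.8% of all genes tested. Of the 5, 4 were higher and 1 lower in KO, where 5.73% of all genes were higher and 5.06% lower. The share of Rab genes apart is near that of all genes.

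The precision of the comparison allows a statement on size. For 46 of the 47 genes the estimated change was under 20%. The 95% interval lay within a 1.5-fold change in either direction for 40 Rab genes (85.1%) and for 73.9% of all genes tested, and within 1.2-fold for 30 Rab genes. For the 26 genes with a level of at least 10 per kilobase, the intervals together spanned -15.8% to 17.2%. By compartment, all 7 early endosome genes had an interval within 1.2-fold, as did 8 of 10 recycling genes, 6 of 12 ER and Golgi genes and 4 of 6 late endosome genes. The median log2 fold changes of the compartments ran from -0.073 for lysosome-related organelles to 0.064 for the less studied genes.

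**Figure D4:**
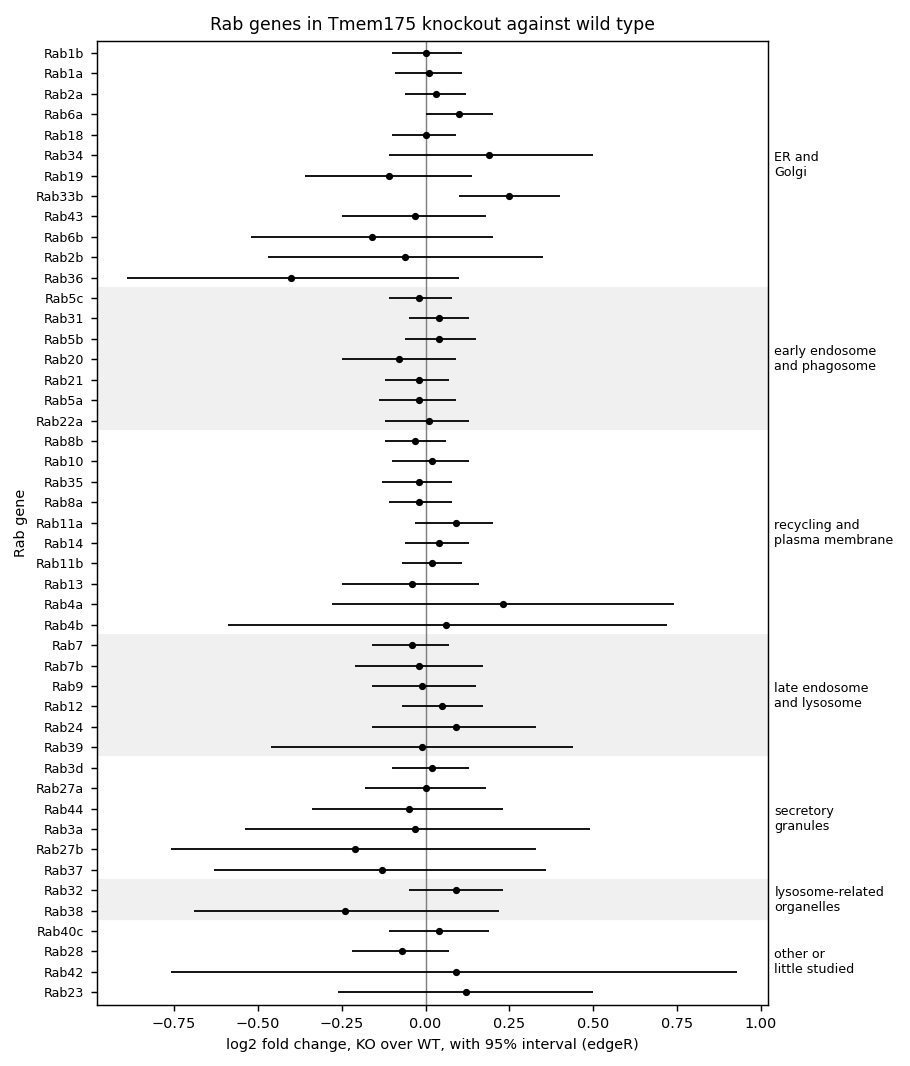
Log2 fold change of the 47 tested Rab genes, KO over WT, with 95% intervals from edgeR, grouped by compartment and ordered by level. The intervals of Rab33b (0.10 to 0.40) and Rab6a (0.00 to 0.20) do not reach below 0, and neither gene passed after adjustment.

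Rab33b and Rab6a had the smallest p-values. Rab33b, a Golgi Rab that also binds the autophagy protein ATG16L1, stood at 21.2, 23.7 and 21.7 CPM in KO libraries, against 18.3, 18.3 and 19.2 CPM in WT libraries. All KO libraries lay above all WT libraries, a change of 0.25 on the log2 scale with an SE of 0.07 (edgeR adjusted p = 0.627). Rab6a stood at 68.2, 68.5 and 69.8 CPM in KO and 65.4, 63.3 and 63.7 CPM in WT libraries, again without overlap, a change of 0.10 with an SE of 0.04 (edgeR adjusted p = 0.908). Of its exon bases, 19.0% lie under exons of Mrpl48 on the opposite strand. For Rab33b this share was 18.7%, under a gene model with 0.0886 CPM on average.

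The rest of the 8 smallest p-values were larger. Rab36, a Golgi Rab at 2.22, 1.76 and 1.45 CPM in KO and 2.80, 2.10 and 2.31 CPM in WT libraries, had the largest estimated change of the tested Rab genes, a log2 fold change of -0.40 with an SE of 0.22 (edgeR adjusted p = 0.950). Its groups overlapped, and its interval ran from -46.2% to 7.1%. Rab11a stood at 76.3, 76.5 and 80.8 CPM in KO and 70.1, 74.2 and 75.7 CPM in WT libraries, without overlap (log2 fold change 0.09, SE 0.05, adjusted p = 0.953). Rab34, a Golgi Rab that positions lysosomes, stood at 15.5, 17.8 and 18.4 CPM in KO and 13.7, 12.8 and 18.6 CPM in WT libraries, where WT replicate 3 was highest of all (log2 fold change 0.19, SE 0.14, adjusted p = 0.968). Rab32, Rab38 and Rab28 made up the 8.

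The spread of each gene over the libraries was set against counting error, which shrinks as counts grow, so the ratio of these quantities is raised for highly expressed genes. The CV over the 6 libraries was more than 3 times that expected from counting alone for 6 of the 47 genes, and the median ratio was 1.65 for Rab genes and 1.58 for all genes tested. Rab7b had the largest ratio, 7.74, with a CV of 9.01%, and its groups overlapped. Rab7 followed at 5.08, although its CV of 3.92% was below the median of 5.56% for Rab genes and 7.61% for all genes tested. Rab27b, a Rab of platelet and mast cell granules, stood at 0.731, 0.499 and 0.812 per kilobase in KO and 0.938, 0.923 and 0.506 per kilobase in WT libraries, a CV of 26.6%. It was highest in WT replicates 1 and 2 and lowest in KO replicate 2 and WT replicate 3. The platelet gene Ppbp stood at 61.8, 37.4 and 52.7 CPM in KO and 88.3, 80.1 and 50.3 CPM in WT libraries, and Itga2b at 36.9, 23.3 and 32.4 CPM in KO and 55.2, 46.1 and 32.9 CPM in WT libraries. Both were likewise highest in WT replicates 1 and 2 and lowest in KO replicate 2. The mast cell and basophil markers were mixed. Cpa3 shared this order, at 2.19, 1.03 and 1.22 CPM in KO and 3.01, 3.16 and 2.54 CPM in WT libraries. Mcpt8, Prss34 and Gata2 were also highest in WT replicates 1 and 2, but lowest in KO replicate 3. Ms4a2 stood at 0.983, 0.599 and 0.304 CPM in KO and 1.21, 1.31 and 1.27 CPM in WT libraries. Fcer1a, which did not pass the filter on low counts, stood at 0.317, 0.0999 and 0.0761 CPM in KO and 0.417, 0.370 and 0.398 CPM in WT libraries. Both were lower in every KO library and lowest in KO replicate 3. Kit and Hdc had their highest values in KO libraries. Kit stood at 6.38, 7.36 and 7.04 CPM in KO and 5.72, 6.29 and 5.65 CPM in WT libraries. On the first principal component of all tested genes (29.3% of variance), the KO libraries stood at -2.62, 17.4 and 13.2 and the WT libraries at -19.9, -17.5 and 9.41, so that WT replicates 1 and 2 also stood apart there. The part of such cells in the level of Rab27b was not tested, and in bulk RNA fewer cells and less RNA per cell cannot be told apart. Rab6b stood at 2.71, 1.76 and 1.78 per kilobase in KO and 2.38, 2.15 and 2.47 per kilobase in WT libraries, with KO replicate 1 high.

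**Figure D5:**
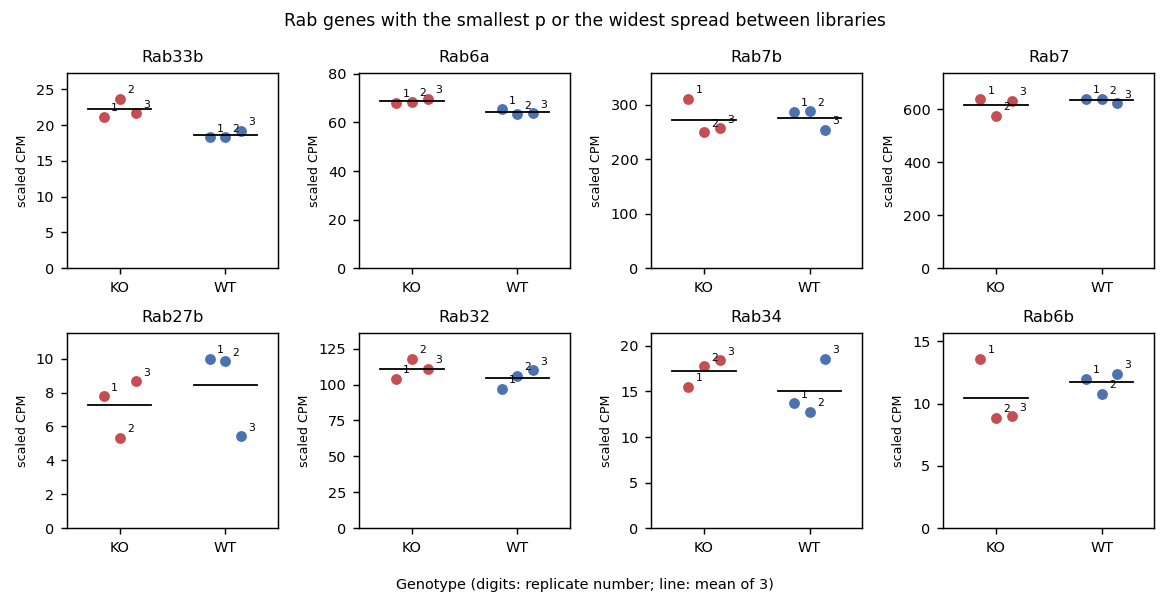
Scaled CPM per library, from 0, for the 2 Rab genes with the smallest p (Rab33b and Rab6a) and the 6 with the widest spread relative to counting error, in KO (red) and WT (blue) libraries with replicate numbers and a line at the mean. Rab33b and Rab6a, chosen by p, separate the genotypes but did not pass after adjustment, whereas the remaining 6, chosen by spread, overlap.

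Regulators and effectors of Rab proteins were examined in 8 lists with 128 genes, of which 116 were tested. None passed: 0 were higher and 0 lower in KO, with a smallest adjusted p of 0.734 (edgeR). The median log2 fold change was 0.003, with 60 positive and 56 negative, against -0.001 over all genes. At an unadjusted p under 0.05, 5 were higher and 3 lower, where 2.40% of all genes were higher and 3.04% lower. The genotypes did not overlap for 14.7% of the 116 genes and for 10.8% of all genes.

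The genes that prenylate Rab proteins and carry them through the cytosol were all 7 tested, with 6 positive and 1 negative log2 fold changes. Chml, an escort protein for prenylation, had a log2 fold change of 0.13 (SE 0.11).

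Of 35 exchange factors, which load Rabs with GTP, 14 had positive and 21 negative log2 fold changes. Rin2, an exchange factor for Rab5, stood at 142, 134 and 130 CPM in KO and 148, 152 and 161 CPM in WT libraries (log2 fold change -0.18, SE 0.05, adjusted p = 0.734, edgeR). Mon1a, which with Ccz1 activates Rab7, stood at 20.3, 19.6 and 19.9 CPM in KO and 17.7, 16.2 and 18.5 CPM in WT libraries (log2 fold change 0.19, SE 0.07, adjusted p = 0.881). Rin2 was lower and Mon1a higher in every KO library than in any WT library, and neither passed. Among 34 tested GTPase-activating proteins, which switch Rabs off, Tbc1d22b and Tbc1d15 had the smallest p-values (log2 fold changes 0.14, SE 0.06, and 0.11, SE 0.05).

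Effectors likewise gave no call. Tgfbrap1, a subunit of the CORVET tether of early endosomes, stood at 80.1, 79.2 and 80.7 CPM in KO and 75.6, 73.9 and 74.5 CPM in WT libraries (log2 fold change 0.10, SE 0.04, adjusted p = 0.908, edgeR), without overlap, and Rabep2, a Rab5 effector, had a log2 fold change of 0.13 (SE 0.07). Rab11fip2, which binds Rab11, stood at 9.04, 10.4 and 9.05 CPM in KO and 8.10, 7.68 and 7.59 CPM in WT libraries (0.28, SE 0.10, adjusted p = 0.863), also without overlap, and Micall1 had a log2 fold change of -0.13 (SE 0.07). The 11 late endosome effectors, with the HOPS tether and Rilp among them, ran from -0.06 to 0.07, and Osbpl1a and Fyco1 had the smallest p (-0.06, SE 0.07, and -0.05, SE 0.07). Only 4 of 13 granule effectors passed the filter. Sytl4, an effector of Rab27, stood at 1.43, 0.866 and 1.03 CPM in KO and 2.17, 1.85 and 1.47 CPM in WT libraries (-0.72, SE 0.27, adjusted p = 0.881), and Mlph had a log2 fold change of -0.30 (SE 0.45). Among 5 Golgi effectors, Bicd1, an adaptor that links Rab6 to dynein, stood at 0.412, 0.433 and 0.647 CPM in KO and 1.71, 0.904 and 0.676 CPM in WT libraries (-1.14, SE 0.40, adjusted p = 0.881), and Golga5 had a log2 fold change of 0.07 (SE 0.05). Sytl4 and Bicd1 were lower in every KO library at levels near or below 2 CPM.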

How the data were processed

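The authors deposited raw counts per Ensembl gene, and the submitters' processing notes list HISAT2, featureCounts and GRCm38. Tool versions, annotation release and strand setting were not given in the sources used here. Symbols, exons and coordinates came from GENCODE M21 on the same build, which matched 55154 of 55421 IDs. One further gene with a fitting symbol, and one gene of the regulator lists, are not reported here. Libraries were scaled by TMM, filtered with filterByExpr and compared with edgeR 4.0.16 (R 4.3.3), by its quasi-likelihood test, two-sided, on a model of genotype alone, adjusted by Benjamini-Hochberg over 13588 genes. Standard errors come from the F statistic, and 95% intervals from its degrees of freedom, each for 1 gene. Members and lists were chosen with earlier results of these data known. Named genes were the highest of each compartment, Rab5, Rab7, Rab27a, Rab32 and Rab38 genes, the 8 smallest p, and the 2 smallest p of each regulator list, apart from the gene not reported; the rest were named by level or spread. Members were compared with all transcripts by BLAST 2.17.0: matches of at least 500 bases at 95% identity or more, outside overlapping genes, were processed pseudogenes of Rab2a, Rab5b, Rab6a, Rab7, Rab9 and Rab11b, none above 0.229 CPM on average. Within each genotype, every pair of libraries differed by more than sampling noise (chi-square over degrees of freedom of 3.66 to 17.6). Alternatives were other scalings, filters and lengths, DESeq2 1.42.0, limma-voom (limma 3.58.1), other edgeR options, the replicate block and leaving out each library.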

Additional observations from a re-analysis of the deposited data

How the results depend on the processing

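No Rab gene and no regulator or effector was called under any of the 16 alternatives run, DESeq2 and limma-voom among them; at an unadjusted p under 0.05, DESeq2 had 1 Rab gene higher (1.05% of all genes) and 0 lower (2.09%), and limma-voom 2 higher (2.38%) and 0 lower (2.99%). Without KO replicate 1, 2 of 47 Rab genes were higher and 4 lower, against 3.55% and 5.09% of all genes. The adjusted p of Rab33b ran from 0.170 without a filter to 1.000 with DESeq2. All genes called numbered 14, against 40 with DESeq2, 151 without a filter, 5 among genes of at least 10 CPM and 4 to 12 with 1 library left out; Tmem175 and Lyz2 were called throughout. Same-numbered libraries did not deviate together (correlations 0.057, -0.123 and 0.0388). These values show no strong pairing by number, but so few libraries cannot exclude one, and the labels do not state it. With the replicate block 17 genes were called, no Rab gene among them.

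Library totals alone shifted the median of all genes to 0.042 and turned the near-zero log2 fold changes of Rab5c (0.02), Rab8b (0.01), Rab5a (0.02) and Rab7b (0.02). With 1 library left out, Rab7 ran from -0.07 to 0.01, Rab7b from -0.12 to 0.04, Rab3d from -0.01 to 0.05 and Rab5a from -0.06 to 0.01. Rab34 ran from 0.09 without WT replicate 2 to 0.38 without WT replicate 3, Rab38 from -0.46 without KO replicate 1 to -0.12 without KO replicate 3, and Rab36 from -0.57 without KO replicate 1 to -0.27 without KO replicate 3 or WT replicate 1. Rab32 ran from 0.04 to 0.14 and Rab28 from -0.12 to -0.02. Shares of the summed level depended on length. Counts without length gave 19.7% for ER and Golgi (main 21.9%), 24.1% for early endosome (25.8%), 27.9% for recycling (19.7%), 22.6% for late endosome (26.3%), 1.90% for granule (1.47%), 2.44% for lysosome-related organelle (3.55%) and 1.34% for the less studied genes (1.28%). Recycling genes then held the highest share. The longest transcript as length gave 25.3% for early endosome, 3.28% for lysosome-related organelle and 1.34% for the less studied genes. Between 34 and 56 Rab genes passed the other filters on low values, 56 where any count sufficed and 34 where the mean had to reach 10 CPM.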
